A study of Mus musculus with 24 samples.

Results

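The immediate early genes *Egr1*, *Egr2*, *Egr3*, *Nr4a1*, *Fos*, *Fosb*, *Jun*, *Junb*, *Ier2* and *Dusp1* were examined by RNA-seq in C2C12 myoblasts, an immortalised mouse muscle precursor line, depleted of 1 of 3 SWI/SNF chromatin remodelling subunits and exposed to Cu or Zn. They are 10 of the 55291 genes counted, and all 10 passed the filter on low counts in every comparison below. The set was listed by name, and *Egr1*, *Egr3* and *Nr4a1* were chosen by their measured metal changes in the knockdown (KD) lines. Those changes are therefore given for these 3 genes as a description, with no test.

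Immediate early genes are transcribed within minutes of a stimulus, without new protein synthesis, when kinase cascades such as ERK act on factors already bound at their promoters, among them SRF with its Elk partners, and CREB. Most encode transcription factors that carry the signal to later genes, and some encode inhibitors that end it. In myoblasts, serum and growth factors are among the stimuli known to induce them.

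The control line (scr) carried a scrambled shRNA and the other 3 lines carried shRNA against *Baf180* (gene symbol *Pbrm1*, a PBAF subunit), *Baf250a* (*Arid1a*, a canonical BAF subunit) or *Brd9* (a non-canonical BAF subunit). Each line was grown without added metal (NT), with 100 µM CuSO4 or with 50 µM ZnSO4, the metals being given for 48 h, with 2 biological replicates in each of the 12 conditions and 24 libraries in all. All lines, scr included, were transduced with shRNA and selected in puromycin according to the methods of the study, whereas the sample labels call the cells primary myoblasts and the knockdown lipofectamine-mediated. The methods list more than 1 shRNA for each target and the labels do not say which was used, so effects of a target and of a hairpin or a selected population cannot be told apart. Per the labels, proliferating cells were kept in medium with fetal bovine serum and basic FGF, both of which are stimuli of this class of genes. The methods of the study name the serum for C2C12 cells but no basic FGF, so its presence here is uncertain. A treatment tag in the labels contradicts some sample titles, and the titles were used.

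As a check of the Zn treatment, *Mt1*, a metallothionein gene, was at 55.2 and 65.1 CPM (counts scaled to library size) in untreated scr and at 312 and 284 with Zn. With Cu it was at 87.6 and 61.7 CPM in scr, which overlaps the untreated values, so *Mt1* gave no clear check of Cu. The other metal checks were slightly higher with Cu in scr. *Mt2*, also a metallothionein gene, was at 29.0 and 25.0 CPM against 18.2 and 20.8 untreated. *Slc30a1*, a Zn exporter gene, was at 14.3 and 12.8 CPM against 10.8 and 11.4. For *Mt1*, untreated KD libraries were already at 150 to 282 CPM. Library totals ran from 12719173 to 75179394 counts, apart from replicate 2 of Zn-treated *Baf250a* KD, which held 495778 counts and stood apart in depth. In that library the counts of the 10 genes lay between 0 (*Fosb*) and 117 (*Junb*), and some values that rest on it are given below with and without it. Without it all 10 genes were still called in *Baf250a* KD against scr over all treatments, with log2 fold changes from -0.50 (*Dusp1*) to 4.02 (*Egr2*). Each targeted transcript was lower in all 6 libraries of its line than in all 6 scr libraries, with highest KD against lowest scr values of 75.7 and 99.9 CPM for *Pbrm1*, 144 and 266 for *Arid1a*, and 17.9 and 27.2 for *Brd9*. The 7 myoblast markers *Myod1*, *Myf5*, *Pax7*, *Des*, *Cdh15*, *Chrna1* and *Vgll2* summed to 2779 to 3927 CPM in scr, 1736 to 1941 in *Baf180* KD, 1354 to 1511 in *Baf250a* KD and 1881 to 2330 in *Brd9* KD, a sum carried mostly by *Des* (median 2043 CPM in scr). Single markers did not all move the same way. *Myod1* had medians of 92.7 CPM in scr and 110, 134 and 80.9 in *Baf180*, *Baf250a* and *Brd9* KD, *Myf5* of 169 and 45.6, 38.4 and 97.7, and *Pax7* of 1.43 and 3.07, 0.807 and 3.53. The 8 differentiation markers (*Myog* and others) summed to 22.8 to 33.8 CPM in scr, 70.4 to 106 in *Baf180* KD, 28.3 to 44.7 in *Baf250a* KD and 11.6 to 15.9 in *Brd9* KD. Endothelial, leukocyte, adipocyte and osteoblast markers summed to at most 6.22 CPM in any library, and the adipocyte and osteoblast lists to at most 0.989. The endothelial sum was 4.05 to 6.18 CPM in scr and at most 2.21 in any KD library. *Tubb3*, a neuronal tubulin gene chosen for mention after its values were seen, was at 65.6 to 113 CPM in scr and 58.0 to 82.5 in *Brd9* KD, against 10.8 to 14.4 in *Baf180* KD and 7.78 to 12.8 in *Baf250a* KD. The part of these markers and of cell state in the differences below was not tested, and in bulk RNA fewer expressing cells and less RNA per cell cannot be told apart.

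Depletion of each subunit was accompanied by the same pattern over the 10 genes. All 10 differed from scr in each KD line over the 3 treatments, 8 being higher (*Egr1*, *Egr2*, *Egr3*, *Nr4a1*, *Fos*, *Fosb*, *Junb* and *Ier2*) and 2 lower (*Jun* and *Dusp1*), by edgeR's quasi-likelihood test with treatment as an additive factor (6 libraries against 6, Benjamini-Hochberg adjustment over all genes, threshold 0.05). The same test called 41.3% of 15840 genes in *Baf180* KD (22.2% higher, 19.1% lower), 51.8% of 15822 in *Baf250a* KD (26.7% higher, 25% lower) and 32.8% of 15721 in *Brd9* KD (16.4% in each direction). The median log2 fold change of the 10 genes was 1.26, 1.69 and 0.77 in the 3 lines, in that order, against -0.02, 0.00 and 0.00 over all genes tested. The 3 comparisons share the scr libraries. Their KD libraries are also those whose metal changes led to the choice of *Egr1*, *Egr3* and *Nr4a1*.

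**Figure D1:**
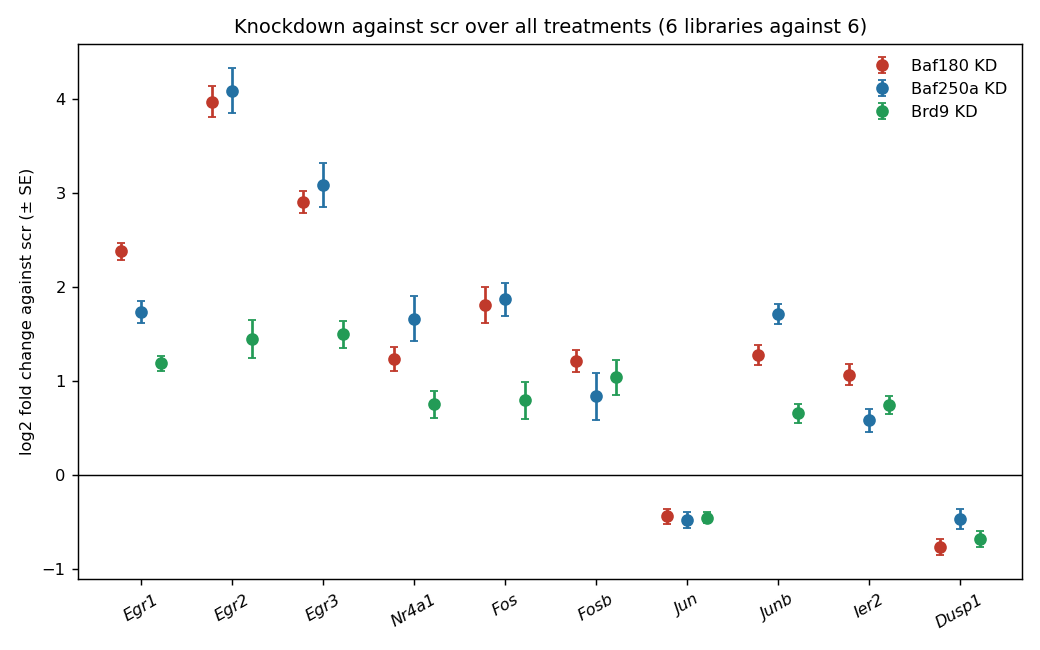
Log2 fold change (vertical axis) of each gene in each KD line against scr over all treatments, with bars of 1 SE, from 6 libraries against 6. *Egr2* and *Egr3* stand highest in each line, up to 4.08 for *Egr2* in *Baf250a* KD, and *Jun* and *Dusp1* are the only genes below 0, in all 3 lines.

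Where libraries did not overlap, the separation was mostly upward. In *Baf180* KD all 6 libraries lay above all 6 scr libraries for 8 of the 10 genes (14.9% of all genes tested) and below them for 1, *Dusp1* (9.21%). In *Baf250a* KD 7 genes lay wholly above (14.6%) and 1, *Jun*, wholly below (13.9%), and *Fosb* and *Dusp1* overlapped scr. In *Brd9* KD 7 genes lay wholly above (9.63%), *Jun* and *Dusp1* wholly below (6.66%), and *Fos* overlapped scr.

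The Egr genes encode zinc finger transcription factors of 1 family, and *Egr2* and *Egr3* had the greatest rises of the 10 genes in each line. *Egr2*, which is best known for its role in myelinating Schwann cells and hindbrain patterning, was barely transcribed in scr cells, with 0.765 and 0.511 CPM without metal, 1.66 and 1.2 with Cu, and 1.22 and 1.32 with Zn, on counts of 11 to 104. In *Baf180* KD it was at 15.8 and 15.5 CPM without metal, 18.1 and 14.8 with Cu, and 21 and 20.0 with Zn. In *Baf250a* KD it was at 16.7 and 23.2 CPM without metal, 15.4 and 12 with Cu, and 21.1 and 31.1 with Zn, the last from 16 counts in the shallow library. Every library of these 2 lines exceeded every scr library several-fold, with log2 fold changes of 3.97 (SE 0.16, edgeR adjusted p = 9.45e-10) and 4.08 (SE 0.24, edgeR adjusted p = 5.34e-09), the second being 4.02 without the shallow library. *Brd9* KD was intermediate, at 2.37 to 4.49 CPM with no overlap with scr, and its log2 fold change was 1.45 (SE 0.20, edgeR adjusted p = 7.95e-05).

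*Egr2* lies on chromosome 10 (GRCm38, 67535475 to 67542188, plus strand). Promoter windows, from 250 bases before to 50 after an annotated start in RefSeq (GRCm38.p6), were held for 7 of the 10 genes, that is *Egr2*, *Nr4a1*, *Fos*, *Fosb*, *Jun*, *Junb* and *Dusp1*. Of the 7, *Egr2* alone had an exact match on either strand to the CArG box (CCWWWWWWGG, W being A or T), the sequence that SRF binds. Such a match was in 1.63% of the 32851 windows in the table. Sites outside the windows or with a mismatch were not sought. *Egr2* had 5 annotated starts in the table, and 4 of its windows held a match, 3 of them overlapping windows that share 1 site, whereas each of the other 6 genes had 1 window. The stretch upstream of an annotated *Egr2* start, chr10:67537619-67537868 on the plus strand, is shown because the gene rose most. Its CArG box, from -72 to -63 relative to the start, is in capitals.
Egr2: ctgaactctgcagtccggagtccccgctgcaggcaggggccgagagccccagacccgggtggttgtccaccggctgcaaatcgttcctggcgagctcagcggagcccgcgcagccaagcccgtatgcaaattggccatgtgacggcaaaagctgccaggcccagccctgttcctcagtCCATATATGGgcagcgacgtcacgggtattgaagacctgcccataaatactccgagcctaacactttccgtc
A match of letters is not evidence that SRF was bound there in these cells.

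*Egr1*, which is induced by many growth factors, was the most abundant of the family per kilobase in every line. It lies at chr18:34859823-34864984 (plus strand). In scr its level was 26.0 and 26.0 CPM without metal, 44.7 and 34.9 with Cu, and 39.0 and 43.4 with Zn. In *Baf180* KD it was 167 and 158 CPM without metal, 184 and 183 with Cu, and 213 and 205 with Zn. *Baf250a* KD ranged from 91.8 to 163 CPM (median 111) and *Brd9* KD from 58.1 to 109 (median 81.8). No KD library overlapped scr, and the log2 fold changes were 2.38 (SE 0.09, edgeR adjusted p = 4.02e-10), 1.73 (SE 0.11, edgeR adjusted p = 1.44e-08) and 1.19 (SE 0.08, edgeR adjusted p = 5.91e-08) for *Baf180*, *Baf250a* and *Brd9* KD. Per kilobase of exon, the median level of *Egr1* was exceeded by 42.1% of 12695 protein-coding genes in scr and by 8.4% in *Baf180* KD.

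*Egr3*, a close relative that responds to the same signals, lies at chr14:70077203-70082614 (plus strand). It was at 2.20 to 3.48 CPM in scr (median 2.66), 15.8 to 24.6 in *Baf180* KD (median 20.8), 11.3 to 39.9 in *Baf250a* KD (median 24.5) and 5.22 to 12.4 in *Brd9* KD (median 7.08). Its levels in the KD lines lay wholly above scr, by log2 2.90 (SE 0.12), 3.08 (SE 0.23) and 1.5 (SE 0.14), with edgeR adjusted p-values of 8.42e-10, 7.16e-08 and 2.90e-06. The highest value, 39.9, was in untreated *Baf250a* KD replicate 2, whose partner was at 21.8 CPM.

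*Nr4a1* encodes an orphan nuclear receptor (chr15:101254269-101274795, plus strand). It was at 9.75 and 8.45 CPM in untreated scr, 9.72 and 8.21 with Cu, and 6.82 and 8.63 with Zn. The untreated *Baf180* KD libraries were at 16.0 and 15.4 CPM, those of *Brd9* KD at 9.97 and 13.8, and those of *Baf250a* KD at 28.4 and 56.5. No KD library fell below the highest scr library. The log2 fold changes over all treatments were 1.23 (SE 0.13, edgeR adjusted p = 4.72e-06), 1.66 (SE 0.24, edgeR adjusted p = 5.36e-05) and 0.75 (SE 0.15, edgeR adjusted p = 0.00125) in *Baf180*, *Baf250a* and *Brd9* KD.

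**Figure D2:**
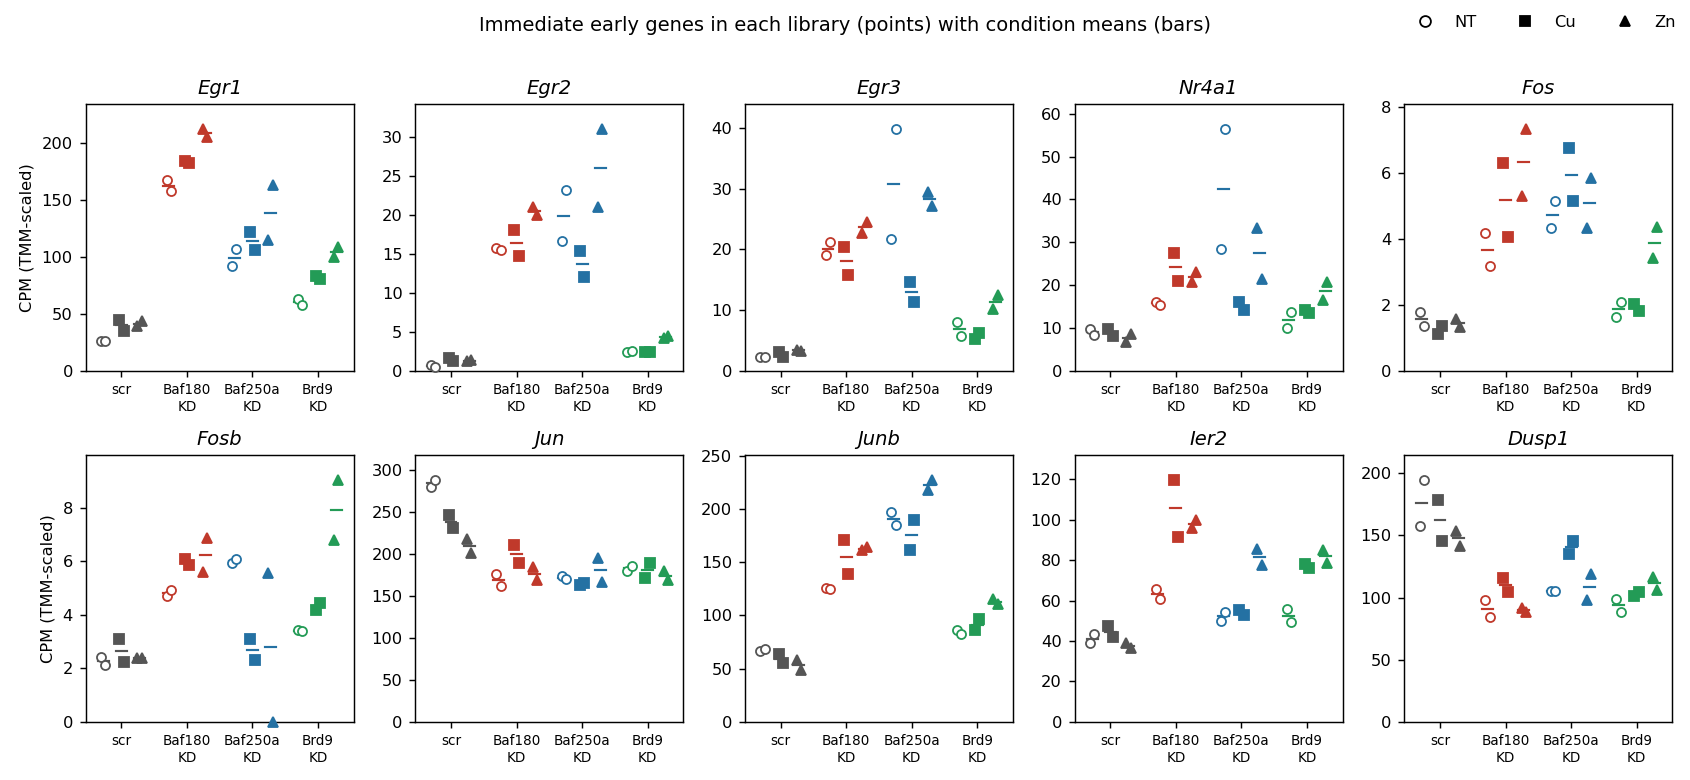
TMM-scaled CPM (vertical axis, linear from 0, a scale for each gene) of the 10 genes in each of the 24 libraries, by cell line and treatment; points are libraries and bars condition means of 2. *Egr1*, *Egr2*, *Egr3* and *Junb* are separated from scr in every KD line, whereas *Jun* and *Dusp1* are highest in scr, and *Fosb* is at 0 in the shallow Zn-treated *Baf250a* KD library.

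The AP-1 genes, whose products pair as Fos and Jun dimers, did not all move the same way. *Fos* and *Fosb* encode the partners that need a Jun protein to bind DNA, and lie at chr12:85473890-85477273 (plus strand) and chr7:19302696-19310051 (minus strand). *Fos* was low in scr, between 1.13 and 1.78 CPM, and lay between 3.17 and 7.34 CPM in *Baf180* KD and between 4.32 and 6.74 in *Baf250a* KD, with no overlap. In *Brd9* KD it was at 1.63 and 2.09 CPM without metal, 2.03 and 1.82 with Cu, and 3.43 and 4.34 with Zn, so that only 1 of its 6 libraries lay within the scr range. The log2 fold changes of *Fos* were 1.81 (SE 0.19), 1.87 (SE 0.18) and 0.79 (SE 0.20), with edgeR adjusted p-values of 6.28e-06, 7.42e-07 and 0.00758. *Fosb* lay between 2.14 and 3.08 CPM in scr, 4.71 and 6.88 in *Baf180* KD and 3.37 and 9.05 in *Brd9* KD, without overlap, and rose by log2 1.21 (SE 0.12, edgeR adjusted p = 2.40e-06) and 1.04 (SE 0.19, edgeR adjusted p = 0.000707). In *Baf250a* KD *Fosb* overlapped scr, with 5.92 and 6.07 CPM without metal, 3.07 and 2.30 with Cu, and 5.57 and 0 with Zn, and its log2 fold change was 0.84 (SE 0.25, edgeR adjusted p = 0.0126), or 0.88 without the shallow library that held the 0.

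*Junb* (chr8:84974484-84978718, minus strand) and *Jun* (chr4:95049034-95052222, minus strand) moved in opposite directions. *Junb*, often a brake on *Jun* activity, was between 49.0 and 68.5 CPM in scr, 125 and 171 in *Baf180* KD, 161 and 227 in *Baf250a* KD, and 82.3 and 115 in *Brd9* KD. These ranges did not overlap scr, with log2 fold changes of 1.28 (SE 0.10, edgeR adjusted p = 4.32e-07), 1.71 (SE 0.10, edgeR adjusted p = 6.15e-09) and 0.66 (SE 0.10, edgeR adjusted p = 0.000207). *Jun* was the most abundant of the 10 genes per kilobase in scr, with a median of 74.8 CPM per kilobase against 26.5 for *Junb*. It was at 280 and 289 CPM in untreated scr, 247 and 231 with Cu, and 218 and 201 with Zn, against 162 to 211 in *Baf180* KD, 163 to 195 in *Baf250a* KD and 169 to 190 in *Brd9* KD. The *Baf180* KD range met that of scr and the other lines lay below it. *Jun* had log2 fold changes of -0.44 (SE 0.08), -0.47 (SE 0.09) and -0.45 (SE 0.06), with edgeR adjusted p-values of 0.000632, 0.000375 and 6.05e-05. By medians per kilobase, *Junb* exceeded *Jun* in *Baf180* KD (65.2 against 56.6 CPM per kilobase) and in *Baf250a* KD (84.0 against 52.9), but not in *Brd9* KD (39.7 against 56.4).

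*Ier2*, a short nuclear protein gene of the early response at chr8:84661331-84662852 (minus strand), lay between 36.3 and 47.4 CPM in scr, 61.0 and 120 in *Baf180* KD, 49.9 and 85.5 in *Baf250a* KD and 49.1 and 84.8 in *Brd9* KD. The lowest KD library was above the highest scr library in each line, and the log2 fold changes were 1.07 (SE 0.11), 0.58 (SE 0.13) and 0.75 (SE 0.10), with edgeR adjusted p-values of 5.89e-06, 0.00145 and 5.51e-05. *Dusp1* encodes a nuclear phosphatase that inactivates ERK, JNK and p38 and so ends the response. Its annotated gene spans chr17:26505590-26562128 (minus strand). It was at 158 and 195 CPM in untreated scr, 179 and 145 with Cu, and 154 and 142 with Zn, against 84.1 to 116 in *Baf180* KD and 88.2 to 117 in *Brd9* KD, without overlap. In *Baf250a* KD it was between 97.6 and 146 CPM and touched the scr range through a single Cu-treated library. *Dusp1* had log2 fold changes of -0.76 (SE 0.08), -0.46 (SE 0.10) and -0.67 (SE 0.08) in the 3 lines, with edgeR adjusted p-values of 8.55e-06, 0.00204 and 3.46e-05.

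The promoters of the 2 genes that fell are shown for comparison with that of *Egr2*, in capitals the 8-letter sequence TGACGTCA, the full CRE to which CREB binds, in *Dusp1* (1.79% of all windows hold it on either strand) and TGACATCA, a variant searched after the values were seen, in *Jun* (3.62%). Each of these was found in no other of the 7 genes. A match of letters does not show which factor binds in these cells, and TGACATCA is not assigned to a factor here. Both stretches, on the minus strand and written 5′ to 3′, stop before annotated exons: chr4:95052223-95052472 for *Jun*, with its match from -45 to -38, and chr17:26508520-26508722 for *Dusp1*, with its match from -143 to -136.
Jun: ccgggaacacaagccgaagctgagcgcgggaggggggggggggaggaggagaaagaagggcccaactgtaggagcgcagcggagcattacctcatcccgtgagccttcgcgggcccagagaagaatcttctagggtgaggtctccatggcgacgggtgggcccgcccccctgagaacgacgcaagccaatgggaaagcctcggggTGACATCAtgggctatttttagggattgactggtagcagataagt
Dusp1: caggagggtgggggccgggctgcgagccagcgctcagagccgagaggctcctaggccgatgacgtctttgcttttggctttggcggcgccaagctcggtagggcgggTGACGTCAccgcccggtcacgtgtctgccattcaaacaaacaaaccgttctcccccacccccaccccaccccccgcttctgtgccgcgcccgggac
The AP-1 sequence TGACTCA (5.2% of windows) and the Egr sequence GCGTGGGCG (0.612%), searched in these exact forms only, were in none of the 7 genes. GCGGGGGCG (2.91%) was in *Nr4a1* and *Fosb*, and TGCGCNC (15.4%) in *Nr4a1*, *Jun* and *Dusp1*. TGCACNC (12.6%), the core of the metal response element together with the preceding motif, was in *Junb*.

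The directions were the same in untreated cells, whose libraries are also part of the comparison above. The untreated KD libraries are also the base of the metal changes by which *Egr1*, *Egr3* and *Nr4a1* were chosen. The values of these 3 genes here are therefore not free of that choice. In *Baf250a* KD *Nr4a1* had a log2 fold change of 2.225, or 1.65 to 2.62 without 1 library, and *Egr3* of 3.783, or 3.29 to 4.14. Over 2 libraries against 2, all 10 genes were called in *Baf180* KD (8 higher, 2 lower), where 41% of 14851 genes were called (21.7% higher, 19.3% lower), and all 10 in *Baf250a* KD (8 higher, 2 lower), where 57.8% of 14971 were (28.9% in each direction). In *Brd9* KD 7 genes were called, 5 higher and 2 lower, against 29.2% of 14277 genes (15.1% higher, 14.1% lower). The 3 not called in *Brd9* KD had log2 fold changes of 0.40 for *Nr4a1* (interval of 2 SE -0.02 to 0.82, edgeR adjusted p = 0.179), 0.27 for *Fos* (-0.41 to 0.96, edgeR adjusted p = 0.577) and 0.60 for *Fosb* (0.07 to 1.13, edgeR adjusted p = 0.121). *Egr2* had the highest untreated fold changes, log2 4.66 (SE 0.25), 4.99 (SE 0.28) and 1.97 (SE 0.37) in *Baf180*, *Baf250a* and *Brd9* KD.

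A few of the untreated calls rested on single libraries. In *Baf180* KD *Fos* was not called without KD replicate 1 (edgeR adjusted p = 0.0833), nor *Fosb* without KD replicate 2 (edgeR adjusted p = 0.0542). In *Baf250a* KD *Ier2* (log2 0.34, SE 0.11) was not called without KD replicate 1 or 2 (edgeR adjusted p = 0.0857 and 0.207). In *Brd9* KD *Egr2* was not called without KD replicate 2 (edgeR adjusted p = 0.0581), *Ier2* (log2 0.37, SE 0.11) without either KD library or scr replicate 1 (edgeR adjusted p = 0.27, 0.151 and 0.0852), and *Junb* (log2 0.33, SE 0.10) without any 1 of the 4 libraries (edgeR adjusted p between 0.0508 and 0.223). With DESeq2 neither *Junb* nor *Ier2* was called in *Brd9* KD (adjusted p = 0.0711 and 0.0836). Correction for GC content and length raised *Ier2* to 0.62 in both *Baf250a* and *Brd9* KD and *Junb* to 0.60 in *Brd9* KD on the log2 scale.

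*Brd9* KD also differed from the other KD lines in how far many of the genes were raised, in comparisons added after the data were seen (6 libraries against 6, treatment additive). *Brd9* KD had the smallest rise for 6 of the 8 raised genes, all but *Fosb* and *Ier2*. Over all genes the calls between KD lines were not split by direction. In the tests, 7 genes were higher in *Baf180* KD than in *Brd9* KD, where 40.8% of genes were called in either direction, and 7 were higher in *Baf250a* KD than in *Brd9* KD, where 54.1% were. The widest of these gaps was *Egr2*, by log2 2.53 (SE 0.10, edgeR adjusted p = 2.71e-11) and 2.66 (SE 0.14, edgeR adjusted p = 2.84e-11). *Dusp1*, higher in *Baf250a* than in *Brd9* KD by log2 0.21 (SE 0.08, edgeR adjusted p = 0.0429), was not called with DESeq2 (adjusted p = 0.105) or with RLE size factors (edgeR adjusted p = 0.0758), with levels corrected for length and GC content (edgeR adjusted p = 0.14), or in 10 of the 12 fits that left out 1 library, among them that without the shallow one (edgeR adjusted p = 0.0582). No other call of these comparisons was lost in a fit that left out 1 library. Those fits added calls for *Nr4a1* between *Baf180* and *Baf250a* KD, *Fosb* between *Baf180* and *Brd9* KD and *Ier2* between *Baf250a* and *Brd9* KD. Between *Baf180* and *Baf250a* KD 4 of the 10 genes were called, a share near the 44.7% of all genes. *Egr1* and *Ier2* were higher in *Baf180* KD by log2 0.70 (SE 0.07, edgeR adjusted p = 3.34e-07) and 0.51 (SE 0.11, edgeR adjusted p = 0.000878), and *Junb* and *Dusp1* were lower in it, with log2 differences of -0.40 (SE 0.08, edgeR adjusted p = 0.000331) and -0.25 (SE 0.06, edgeR adjusted p = 0.00385). *Jun* was called between no pair of KD lines, with intervals of 2 SE from -0.07 to 0.21 (*Baf180* minus *Baf250a* KD), -0.12 to 0.11 (*Baf180* minus *Brd9* KD) and -0.15 to 0.09 (*Baf250a* minus *Brd9* KD).

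Few calls were made for Cu and Zn. The metals were given for 48 h and no earlier time was sequenced, so a rise that had ended by then could not be seen. In scr, Cu gave no call among the 10 genes, against 0.0333% of 15002 genes. An unadjusted edgeR p under 0.05 was found for 3 of the 10, and for 1559 of the 15002. *Egr1* had a log2 fold change of 0.62 with Cu (SE 0.13, edgeR adjusted p = 0.394) and was the 1 gene called by DESeq2 (adjusted p = 0.0327). With Zn 2 of the 10 were called, against 17.6% of all genes. *Egr1* rose by log2 0.75 (SE 0.13, edgeR adjusted p = 0.0275), both Zn libraries lying above both untreated libraries, and *Jun* fell by 0.35 (SE 0.08, edgeR adjusted p = 0.0309). *Egr1* was not called without untreated replicate 2 or either Zn library (edgeR adjusted p = 0.177, 0.128 and 0.192), nor *Jun* without any 1 of the 4 libraries (edgeR adjusted p between 0.056 and 0.319).

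GC content and signs of RNA composition moved with Zn in scr. The mitochondrial share of counts was 0.991% and 0.856% in the untreated scr libraries and 2.05% and 2.13% with Zn, and the rRNA share was 4.67% and 1.64% untreated and 0.122% and 0.121% with Zn. The untreated scr libraries, which had the highest rRNA shares of the 24, are the base of every untreated and scr metal comparison, and the part of these shares in the results was not tested. The slope of a library's log2 levels, relative to the mean over libraries, on GC content was 0.11 and 0.32 log2 units per 10 percentage points in the untreated scr libraries and -0.25 and -0.34 with Zn. The median GC content of the 10 genes was 55.8%, against 49.2% over the genes tested. After each library was corrected for a trend on GC content and length, *Jun* changed by log2 -0.04 with Zn in scr (edgeR adjusted p = 0.812), and 80 genes were called in place of 2645.

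In the KD lines 7 genes were tested for a metal response. In *Baf180* KD *Ier2* was called with Cu, rising from 65.6 and 61.0 CPM to 120 and 91.7, by log2 0.71 (SE 0.12, edgeR adjusted p = 0.0095), against 13.8% of all genes. It was not called without Cu replicate 1 or untreated replicate 2 (edgeR adjusted p = 0.0606 and 0.0848). All 10 genes were higher in replicate 1 than in replicate 2 of that Cu condition. With Zn none of the 7 was called in *Baf180* KD, against 0.0197% of all genes. An unadjusted edgeR p under 0.05 was found for 4 of the 7, and for 1999 of 15241 genes. With a replicate block *Ier2* and *Junb* were called with Zn (edgeR adjusted p = 0.00727 and 0.0444), and *Jun*, *Junb* and *Dusp1* joined *Ier2* with Cu (edgeR adjusted p = 0.0418, 0.0435 and 0.0291). Over all genes the block took the calls from 3 to 657 with Zn and from 2097 to 3892 with Cu. *Ier2*, at 95.7 and 99.9 CPM, lay above both untreated libraries there (log2 0.61, SE 0.12, edgeR adjusted p = 0.198) and was the 1 gene called by DESeq2 (adjusted p = 0.00175).

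In *Baf250a* KD 2 of the 7 were called with Cu, against 1.27% of all genes. *Fosb* fell by 1.14 on the log2 scale (SE 0.24, edgeR adjusted p = 0.011), from 5.92 and 6.07 CPM to 3.07 and 2.30, and was not called without Cu replicate 2 (edgeR adjusted p = 0.115) or by DESeq2. *Dusp1* rose from 105 and 105 CPM to 135 and 146, by log2 0.42 (SE 0.09, edgeR adjusted p = 0.0114), and was not called without any 1 of these 4 libraries (edgeR adjusted p between 0.0704 and 0.436). With Zn 1 of the 7 was called, against 15.9% of all genes. *Ier2* rose from 49.9 and 54.4 CPM to 85.5 and 77.8, by log2 0.70 (SE 0.11, edgeR adjusted p = 1.02e-04), or 0.70 without the shallow library (edgeR adjusted p = 1.1e-05), and was not called without Zn replicate 1 (edgeR adjusted p = 0.239), which leaves the shallow library as the sole Zn library.

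In *Brd9* KD none of the 7 was called with Cu, against 0.274% of all genes, or with Zn, against 0.0334%, by edgeR. An unadjusted edgeR p under 0.05 was found with Cu for 1 of the 7, and for 2426 of 14978 genes. With Zn it was found for 6 of the 7, and for 451 of the 14978. DESeq2 called *Ier2* with each metal (adjusted p = 0.00234 and 0.000292). The Zn values were nevertheless apart from the untreated ones for several genes. *Fosb* was at 6.81 and 9.05 CPM with Zn against 3.43 and 3.37 (log2 1.2, SE 0.21, edgeR adjusted p = 0.405), and *Ier2* at 84.8 and 78.8 CPM against 56 and 49.1 (log2 0.63, SE 0.08, edgeR adjusted p = 0.0774). *Fos* was at 3.43 and 4.34 CPM against 1.63 and 2.09 (log2 1.05, SE 0.28, edgeR adjusted p = 1).

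**Figure D3:**
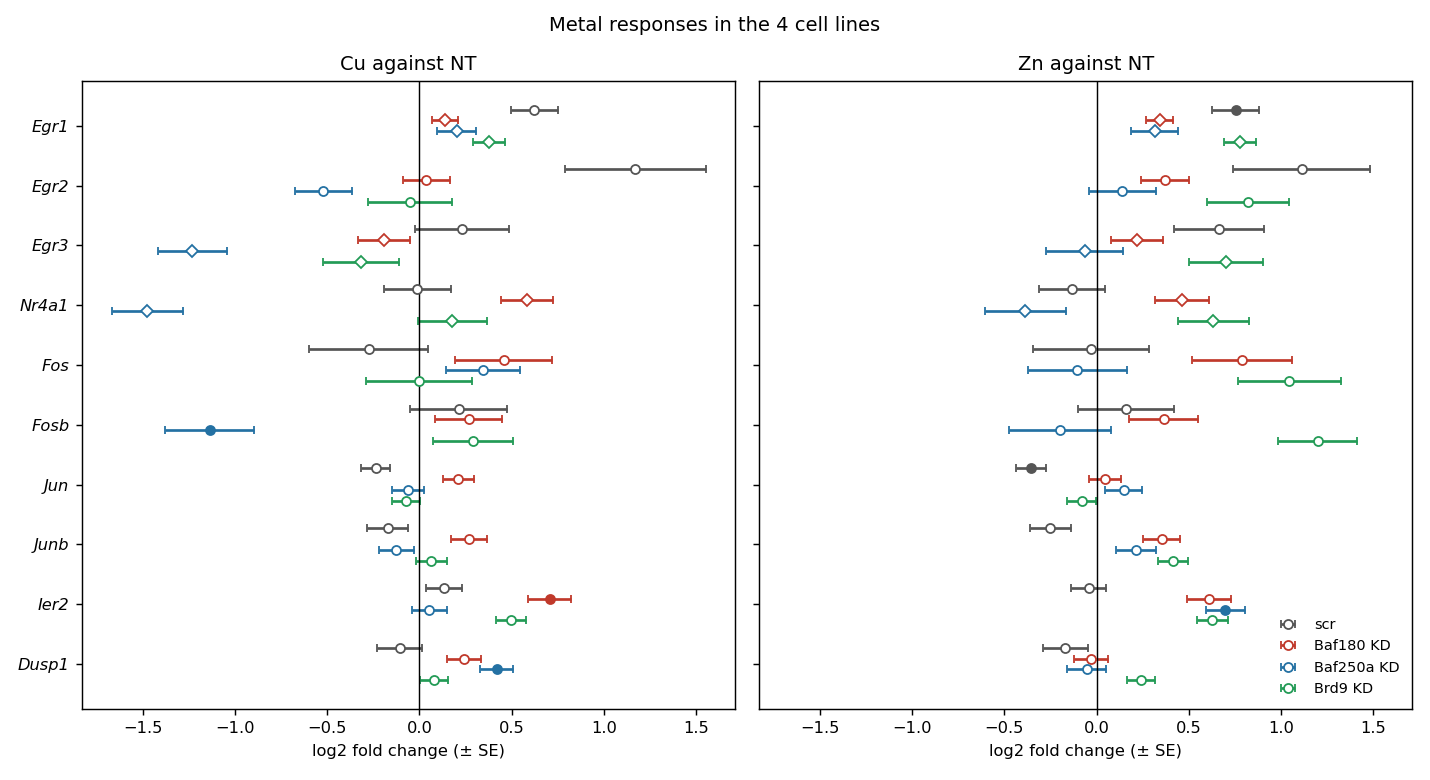
Log2 fold change (horizontal axis, bars of 1 SE) of each gene with Cu (left) and Zn (right) against NT in the 4 cell lines, 2 libraries against 2; filled symbols passed the test, open circles did not, and diamonds are *Egr1*, *Egr3* and *Nr4a1* in the KD lines, which were not tested there. *Nr4a1* and *Egr3* lie farthest to the left with Cu in *Baf250a* KD, at -1.48 and -1.23.

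The 3 genes chosen by their metal changes had these values. In *Baf250a* KD *Nr4a1* was at 28.4 and 56.5 CPM without metal, 16.1 and 14.1 with Cu, and 33.4 and 21.4 with Zn, and *Egr3* at 21.8 and 39.9, 14.6 and 11.3, and 29.5 and 27.2 CPM in the same order. Both Cu libraries were below both untreated libraries for each gene, with log2 fold changes of -1.48 (SE 0.19) for *Nr4a1* and -1.23 (SE 0.19) for *Egr3*. Without untreated replicate 2, the highest of these libraries, the values were -0.91 and -0.75, and those with Zn moved from -0.39 to 0.17 for *Nr4a1* and from -0.06 to 0.42 for *Egr3*. In *Baf180* KD *Nr4a1* was at 27.4 and 21 CPM with Cu and 20.7 and 23.1 with Zn, all above the untreated 16.0 and 15.4 (log2 0.58, SE 0.14, and 0.46, SE 0.14). In *Brd9* KD the log2 fold changes with Zn were 0.78 (SE 0.09) for *Egr1*, 0.70 (SE 0.20) for *Egr3* and 0.63 (SE 0.19) for *Nr4a1*, and with Cu 0.38 (SE 0.09), -0.31 (SE 0.21) and 0.18 (SE 0.19). The log2 fold change of *Egr1* with Cu was 0.14 in *Baf180* KD, where it was -0.07 after correction for GC content and length, and 0.20 in *Baf250a* KD, where Cu replicate 2 (106 CPM) lay just below untreated replicate 2 (107 CPM) and the value was 0.07 without Cu replicate 1.

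Whether a metal response differed between a KD line and scr was tested by the interaction contrast over all 24 libraries for the other 7 genes. In *Baf180* KD *Jun*, *Junb* and *Ier2* had a more positive response than in scr, both to Cu (log2 differences of 0.50, 0.49 and 0.63, against 12.8% of all genes called) and to Zn (0.51, 0.71 and 0.76, against 28.7%). In *Baf250a* KD *Jun*, *Junb* and *Ier2* differed with Zn (0.56, 0.55 and 0.82, against 30.5%), and in *Brd9* KD *Fosb*, *Junb* and *Ier2* did (1.13, 0.76 and 0.77, against 11.1%). The edgeR adjusted p-values of these 12 differences lay between 0.00152 (*Ier2*, *Baf250a* KD with Zn) and 0.0442 (*Fosb*, *Brd9* KD with Zn). With Cu none of the 7 was called in *Baf250a* KD (0.0121% of all genes) or in *Brd9* KD (0.0363%), by edgeR or by DESeq2. In *Baf250a* KD 3 of the 7 had an unadjusted edgeR p under 0.05, as had 1274 of 16524 genes. In *Brd9* KD 2 of the 7 had one, as had 2759 of 16524 genes. None of the 12 differences was called after correction for GC content and length, with values from -0.05 to 0.81.

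Among the replicates, *Nr4a1* and *Egr3* were the least reproducible of the 10. Their biological coefficients of variation were 0.162 and 0.156, higher than those of 94.6% and 93.2% of genes of like abundance. That of *Fos* was close, at 0.154, but higher than only 66.5% of such genes. The coefficient of *Jun*, 0.064, was higher than 18.7% and that of *Fosb*, 0.099, than 21.9%. After the mean of each line was removed, 37 of the 45 pairs of the 10 genes had a positive correlation over the 23 libraries other than the shallow one, with a median r of 0.32. The share of positive pairs over all genes was not determined. The libraries share conditions, depth and trends on GC content, so this is a description. Removing line means leaves in place the metal changes by which *Egr1*, *Egr3* and *Nr4a1* were chosen. These correlations and those below are therefore not free of that choice. By the same measure over all 24 libraries, and with values of 0.58 to 0.81 for these 15 genes without the shallow one, the genes most like *Egr1* were *Mt1* (r = 0.76), *Tgfbr3* (0.76), *Mt2* (0.75), *Gm45774* (0.74) and *Ank2* (0.70), of which *Mt1* and *Mt2* are metallothioneins that bind Zn and Cu. Those most like *Nr4a1* were *Errfi1* (0.80), an inhibitor of EGF receptor signalling, *Arc* (0.74), itself an immediate early gene, *Ctnnal1* (0.71), *Cth* (0.68) and *Cemip2* (0.67). Those most like *Fos* were *Slc1a7* (0.63), *Scfd2* (0.62), *Btg2* (0.59), another early gene, *9330102E08Rik* (0.59) and *Angptl6* (0.59).

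Immediate early genes outside the 10 moved in both directions. Of 33 other immediate early genes, 32 passed the filter (*Egr4* did not), and 15 were higher and 12 lower in *Baf180* KD, 14 and 12 in *Baf250a* KD, and 8 and 13 in *Brd9* KD, with median log2 fold changes of 0.16, 0.12 and -0.02. Over all genes tested 22.2% were higher and 19.1% lower in *Baf180* KD, 26.7% and 25% in *Baf250a* KD, and 16.4% each way in *Brd9* KD, against which all the list counts below are to be read. *Socs3*, an inhibitor of cytokine signalling, rose in all 3 lines, by log2 1.71 (SE 0.09), 2.52 (SE 0.09) and 1.04 (SE 0.09). *Atf3*, a stress-induced AP-1 relative, fell in all 3, with log2 fold changes of -1.42 (SE 0.10), -3.71 (SE 0.15) and -1.06 (SE 0.14), its median going from 68.6 CPM in scr to 24.7, 5.41 and 30.8. *Ccn2*, a matricellular growth factor gene, had log2 fold changes of -1.46, -0.72 and -1.09 in the same order, and *Csrnp1* had log2 fold changes of -0.96, -2.10 and -0.91 in *Baf180*, *Baf250a* and *Brd9* KD. *Klf2*, a Krüppel-like factor gene, rose by log2 1.62 (SE 0.10) in *Baf180* KD and 2.19 (SE 0.12) in *Baf250a* KD. *Nr4a3*, a relative of *Nr4a1*, rose by 1.3 (SE 0.28) and 2.77 (SE 0.30) in these lines, from a median of 0.423 CPM in scr, and *Fosl1*, a Fos family gene, by 0.65 (SE 0.08) in *Baf180* KD and 0.93 (SE 0.07) in *Brd9* KD.

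Among feedback inhibitors of the ERK and Egr pathway more genes were higher than lower. Of 17, all tested, 11 were higher and 3 lower in *Baf180* KD (median log2 fold change 0.59), 9 and 5 in *Baf250a* KD (0.28), and 10 and 3 in *Brd9* KD (0.31), where all genes had 16.4% in each direction. *Nab2*, a corepressor that binds Egr proteins, went from a median of 38.6 CPM in scr to 143 in *Baf180* KD (log2 1.86, SE 0.09, edgeR adjusted p = 3.04e-09) and 114 in *Baf250a* KD (1.70, SE 0.13, edgeR adjusted p = 1.11e-07), with 67.2 in *Brd9* KD (0.78, SE 0.08, edgeR adjusted p = 6.08e-06). *Dusp5*, a nuclear ERK phosphatase, rose by log2 1.71 (SE 0.08), 0.98 (SE 0.11) and 1.1 (SE 0.08) in *Baf180*, *Baf250a* and *Brd9* KD, and *Zfp36l2*, which promotes mRNA decay, by 1.59 (SE 0.07), 1.56 (SE 0.08) and 1.12 (SE 0.06). *Spry1*, an inhibitor of receptor tyrosine kinase signalling, rose by log2 1.43 (SE 0.10) in *Baf180* KD and 2.03 (SE 0.15) in *Baf250a* KD, and had a value of -0.15 (SE 0.10) in *Brd9* KD. *Dusp8* and *Dusp16*, phosphatases that act on JNK and p38, fell with *Dusp1* in all 3 lines, *Dusp8* with log2 fold changes of -1.61 (SE 0.07), -1.74 (SE 0.08) and -0.77 (SE 0.06) and *Dusp16* with -1.13 (SE 0.06), -1.68 (SE 0.07) and -0.67 (SE 0.05).

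The kinases and transcription factors upstream had list medians from -0.16 to 0.18 on the log2 scale. RNA levels were measured here, and the activity of these proteins was not tested. Of 17 ERK pathway genes, 2 were higher and 5 lower in *Baf180* KD, 3 and 3 in *Baf250a* KD, and 3 and 4 in *Brd9* KD (medians -0.16, -0.09 and 0.00), beside 41.3%, 51.8% and 32.8% of all genes called in either direction. *Mapk3*, which encodes ERK1, rose in all 3 lines by log2 0.59 (SE 0.09), 0.49 (SE 0.10) and 0.32 (SE 0.10). *Rps6ka4*, a kinase downstream of ERK and p38, rose in all 3 lines (0.57, SE 0.11, 0.30, SE 0.12, and 0.37, SE 0.09), and *Rps6ka5*, its relative, in *Baf250a* KD (0.85, SE 0.12). The adaptor *Grb2* had log2 fold changes of -0.42 (SE 0.06), -0.41 (SE 0.09) and -0.26 (SE 0.06) in the 3 lines. The kinase *Map2k2* fell by 0.62 (SE 0.13) in *Baf250a* KD and by 0.33 (SE 0.08) in *Brd9* KD, and *Rps6ka1* by 0.40 (SE 0.12) in *Baf180* KD and by 1.60 (SE 0.18) in *Baf250a* KD. Of SRF, its partners and CREB family genes, 10 in all, 2 were higher and 1 lower in *Baf180* KD, 5 and 2 in *Baf250a* KD, and 2 and 1 in *Brd9* KD (medians 0.08, 0.18 and 0.15). *Elk4*, an SRF partner, rose by log2 0.58 (SE 0.06), 0.64 (SE 0.07) and 0.36 (SE 0.05) and *Mrtfb*, a coactivator of SRF, fell in the 3 lines (log2 -0.34, SE 0.07, -0.33, SE 0.09, and -0.18, SE 0.06). *Elk1* rose in *Baf180* KD (0.23, SE 0.07) and *Baf250a* KD (0.46, SE 0.09), and *Elk3* fell by 0.25 (SE 0.08) in *Baf250a* KD and rose by 0.20 (SE 0.06) in *Brd9* KD.

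**Figure D4:**
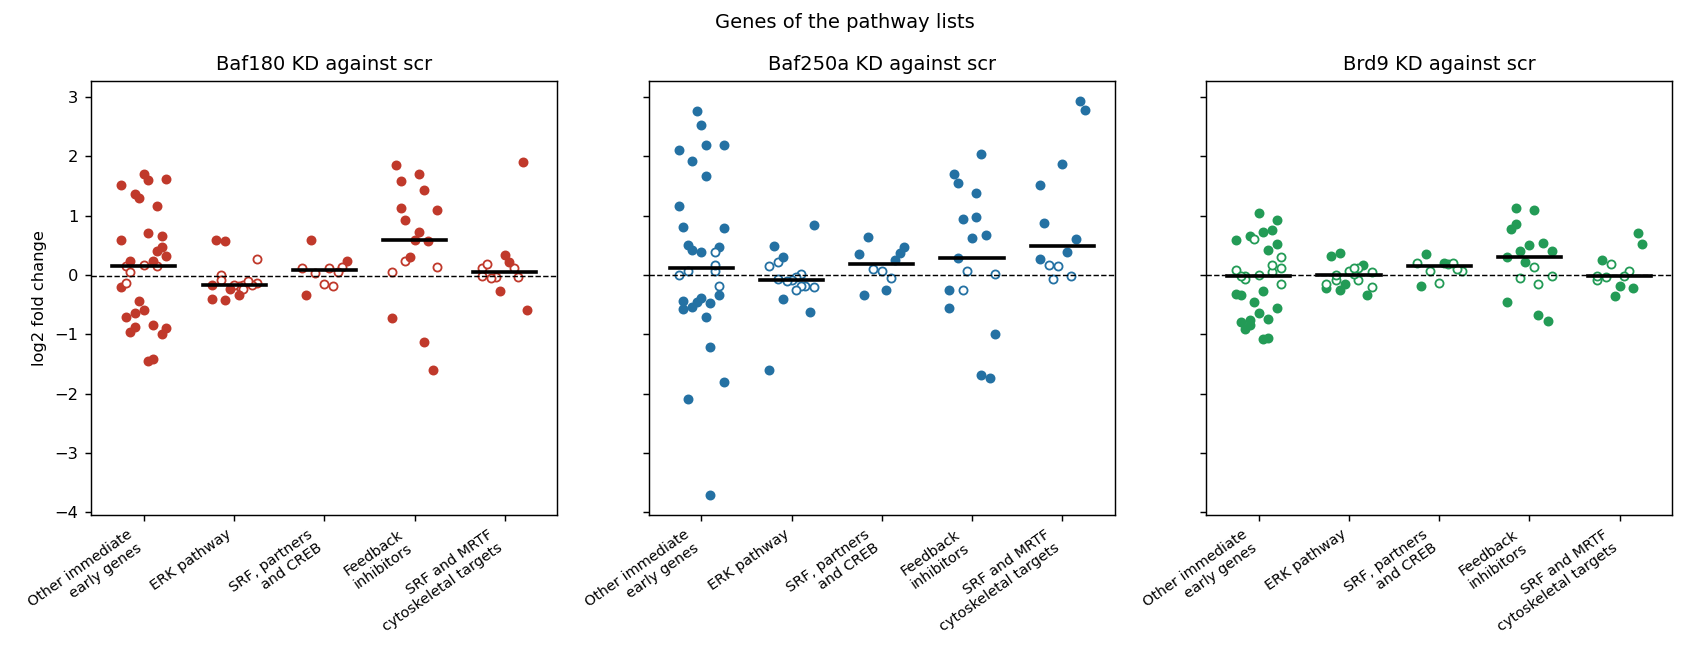
Log2 fold change (vertical axis) against scr over all treatments of the genes in 5 pathway lists, in the 3 KD lines; filled points passed the test, bars are list medians and the dashed line is the median of all genes tested. Feedback inhibitors have medians of 0.59, 0.28 and 0.31, whereas the other immediate early genes spread to both sides of 0, down to -3.71 for *Atf3*.

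Cytoskeletal targets of SRF and MRTF are another class of SRF genes. Of 12, 3 were higher and 2 lower in *Baf180* KD (median 0.05), 8 higher and none lower in *Baf250a* KD (0.49), and 3 and 3 in *Brd9* KD (-0.02). *Myl9*, a regulatory myosin light chain, rose in all 3 lines by log2 1.91 (SE 0.09), 2.94 (SE 0.10) and 0.71 (SE 0.08). *Cnn1*, a smooth muscle calponin, rose by 2.77 (SE 0.13) in *Baf250a* KD and 0.53 (SE 0.08) in *Brd9* KD and fell by 0.60 (SE 0.13) in *Baf180* KD, and *Tagln* had log2 fold changes of 0.34 (SE 0.08), 1.86 (SE 0.17) and -0.19 (SE 0.06) in *Baf180*, *Baf250a* and *Brd9* KD. The tropomyosin gene *Tpm2* fell by 0.28 (SE 0.07) in *Baf180* KD and by 0.36 (SE 0.06) in *Brd9* KD, and *Tpm1* fell by 0.23 (SE 0.05) in *Brd9* KD and rose by 0.605 (SE 0.08) in *Baf250a* KD. In scr, Cu gave no call in any of the 5 lists, while with Zn, where 17.6% of all genes were called and 80 genes were after the GC and length correction, 2 of the other immediate early genes were higher and 5 lower, 5 and 3 of the ERK pathway, 1 and 0 of the SRF and CREB list, 2 and 1 of the feedback inhibitors, and 0 and 4 of the cytoskeletal targets.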

How the data were processed

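RNA was sequenced from rRNA-depleted, strand-specific libraries. The authors aligned reads to mm10 with STAR, keeping unique alignments, and used featureCounts for reverse-strand pairs with both ends mapped. Versions are not given in the sources used here. The deposited values are raw counts per gene symbol. The authors' own DESeq2 comparison tables, which hold fold changes and p-values, were not used, and 0 columns of unknown sample were left out.

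Counts were filtered with filterByExpr, scaled by TMM and tested with edgeR 4.0.16 (limma 3.58.1, R 4.3.3) by the quasi-likelihood test, with Benjamini-Hochberg adjustment over all genes tested and a threshold of 0.05. CPM values are TMM-scaled over all 24 libraries. For a metal response the 6 libraries of its line were fitted, for untreated comparisons 4 libraries, for comparisons over all treatments 12, and for interactions 24. Intervals span 2 SE on each side. Lengths, GC content and positions came from GENCODE M21 (GRCm38), which matched 53292 of 55291 symbols (96.38%), and promoters from RefSeq (GRCm38.p6).

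The 10 genes and the lists were chosen with earlier results of these data known. All 10 genes are named. From each list the 2 called genes with the greatest rise and the 2 with the greatest fall in each comparison of a KD line with scr were named, and for *Egr1*, *Fos* and *Nr4a1* the 5 other genes with the highest correlation after removing line means. The fits have no block, and the methods of the study name none. Same-numbered libraries deviated together (r over 0.1) for all 3 pairs of conditions within *Baf180* KD. They also did for Cu with Zn in scr (0.28), for NT with Zn in *Brd9* KD (0.19), and for 30 of 66 pairs over the study. Many of the 66 pairs join different lines, so they do not settle pairing within a line. Blocked values are given beside the *Baf180* KD metal results. Alternatives were RLE size factors, no filter, DESeq2 1.42.0, a replicate block, 1 fit of 24 libraries, a spline correction for GC content and length (5 degrees of freedom), and leaving out each library. On simulated counts with 200 genes changed by log2 1, the test recovered 93.5% in *Baf180* KD against scr over all treatments (15452 genes), 81% in untreated *Baf180* KD against scr (14524), 78.5% for Zn in scr (14751), 80.5% for Zn in *Brd9* KD (14699) and 68.5% for the interaction of *Baf180* KD with Zn (15981). Apart from the changed genes, the simulated libraries shared a mean profile, with no trend on GC content or RNA composition. Only genes above a minimum abundance were changed. These recovery rates therefore need not hold in the real libraries. The replicates are independent biological replicates by the methods of the study, which do not state whether transductions were separate, so p-values measure the spread between these cultures only. Depth was 495778 counts in 1 library and 12719173 to 75179394 in the others. One further marker list is not reported here.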

Additional observations from a re-analysis of the deposited data

Results flagged for a closer look

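In 12 combinations of gene, line and metal the response differed from that of scr. The test was of the difference itself, by the edgeR interaction contrast over 24 libraries. In each line and metal below, 3 of the 7 genes tested were called. Over all genes the share called was 12.8% for *Baf180* KD with Cu. With Zn it was 28.7% in *Baf180* KD, 30.5% in *Baf250a* KD and 11.1% in *Brd9* KD. In *Baf180* KD with Cu, the log2 differences were 0.50 for *Jun*, 0.49 for *Junb* and 0.63 for *Ier2* (edgeR adjusted p = 0.0164, 0.0416 and 0.0176), and after correction for GC content and length 0.18, 0.14 and 0.30. *Jun* and *Ier2* were not called without *Baf180* KD Cu replicate 1, *Baf180* KD NT replicate 2, scr Cu replicate 2 or scr NT replicate 2, and *Junb* was not called without any 1 of 12 libraries, among them these 4.

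In *Baf180* KD with Zn, the differences were 0.51 for *Jun*, 0.71 for *Junb* and 0.76 for *Ier2* (edgeR adjusted p = 0.00564, 0.0028 and 0.00227), called whichever library was left out, and 0.07, 0.15 and 0.25 after the correction. In *Baf250a* KD with Zn they were 0.56 for *Jun*, 0.55 for *Junb* and 0.82 for *Ier2* (edgeR adjusted p = 0.00314, 0.0141 and 0.00152), and 0.07, -0.05 and 0.35 after the correction. None of the 3 was called without *Baf250a* KD Zn replicate 1, and *Junb* also not without *Baf250a* KD NT replicate 2, scr NT replicate 2 or scr Zn replicate 2.

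In *Brd9* KD with Zn, the differences were 1.13 for *Fosb*, 0.76 for *Junb* and 0.77 for *Ier2* (edgeR adjusted p = 0.0442, 0.0232 and 0.0237), and 0.81, 0.30 and 0.37 after the correction. *Fosb* was not called in 20 of the fits that left out 1 library, with RLE size factors (edgeR adjusted p = 0.0588) or with DESeq2 (adjusted p = 0.104), and *Junb* and *Ier2* were not called without *Brd9* KD NT replicate 2, *Brd9* KD Zn replicate 1, scr NT replicate 2 or either scr Zn library. The 3 Zn comparisons share the scr libraries, in which GC content moved with Zn, and the part of GC content in these differences was not tested beyond the correction.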

How the results depend on the processing

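All 30 calls of the 10 genes in KD lines against scr over all treatments were made under all 6 alternatives and in all 12 fits per line that left out 1 library. In untreated *Brd9* KD, 7 genes were called, and 4 to 6 when 1 library was left out. The metal counts moved more. With Cu, scr went from 0 called to 1 without the filter, in 1 fit of 24 libraries and with DESeq2 (*Egr1* each time). *Baf180* KD went from 1 to 2 without the filter. *Baf250a* KD went from 2 to 1 in the fit of 24 libraries, 0 with DESeq2 and 3, with *Egr2*, without the filter. *Brd9* KD went from 0 to 1 without the filter, in the fit of 24 libraries and with DESeq2 (*Ier2*). With Zn, scr went from 2 to 1 with the GC and length correction and 4 in the fit of 24 libraries. *Baf180* KD went from 0 to 3 without the filter and 1 in the fit of 24 libraries and with DESeq2. *Brd9* KD went from 0 to 3 without the filter and 1 with the correction, in the fit of 24 libraries and with DESeq2. Leaving out 1 library gave 0 to 2 for Cu in *Baf180* KD and for Zn in scr, 0 to 3 for Cu and 0 to 1 for Zn in *Baf250a* KD, and 0 to 1 for Cu in *Brd9* KD. Of the interactions, the correction left 0 of 3 called for *Baf180* KD with Cu and with Zn and *Brd9* KD with Zn, and 1, *Egr2*, for *Baf250a* KD with Zn, where *Junb* reversed to -0.05 (-0.0547). No filter gave 2 in place of 0 for *Baf250a* KD with Cu. Leaving out 1 library gave 0 to 4 for *Baf180* KD with Cu and for *Baf250a* KD with Zn, and 0 to 5 for *Brd9* KD with Zn. *Jun* in *Baf180* against *Brd9* KD, a comparison added after the data were seen, reversed from -0.00 to 0.0164 without the filter. Without 1 library its range was -0.0323 to 0.0433, and other uncalled differences between KD lines also turned: between *Baf180* and *Baf250a* KD *Egr2* ranged from -0.157 to 0.0315, *Egr3* from -0.274 to 0.0535 and *Fos* from -0.271 to 0.0133, and between *Baf250a* and *Brd9* KD *Fosb* from -0.265 to 0.0213. The cause of these changes was not tested.

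Replicate numbers gave mixed signs of pairing over the 4 lines: same-numbered libraries of the 66 pairs of conditions had correlated deviations from -0.18 to 0.39, 30 of them over 0.1. Within *Baf180* KD all 3 pairs were over 0.1 (0.134, 0.247 and 0.153), as were Cu with Zn in scr (0.280) and NT with Zn in *Brd9* KD (0.187). With a replicate block the counts became 4 for *Baf180* KD with Cu, 3 for *Baf250a* KD with Cu (*Egr2* added), 2 for *Baf180* KD with Zn, 0 for scr with Zn, and 5 for the *Brd9* KD interaction with Zn, and *Junb* and *Ier2* were not called in untreated *Brd9* KD (adjusted p = 0.138 and 0.107).

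Counts over all genes varied as widely for the metals. For Zn in scr 2645 genes were called, between 14 (replicate block) and 4968 (24 libraries) under the alternatives and between 5 and 4327 without 1 library. For Zn the ranges over alternatives and over left-out libraries were 3 to 657 and 2 to 7 in *Baf180* KD (3 called), 342 to 2298 and 266 to 3539 in *Baf250a* KD (2334), and 3 to 29 and 3 to 4 in *Brd9* KD (5). For Cu they were 5 to 758 and 3 to 143 in scr (5), 989 to 3892 and 57 to 2304 in *Baf180* KD (2097), 32 to 268 and 92 to 421 in *Baf250a* KD (187), and 37 to 1060 and 0 to 115 in *Brd9* KD (41). For the interaction with Zn they were 1217 to 5291 and 1883 to 5185 in *Baf180* KD (4742), 2803 to 5159 and 1102 to 5348 in *Baf250a* KD (5036), and 1 to 2639 and 0 to 3029 in *Brd9* KD (1837). With Cu they were 252 to 2664 and 1 to 3204 (2116), 2 to 359 and 0 to 11 (2), and 1 to 983 and 0 to 625 (6), in the same order. Without 1 library the untreated comparisons called 3025 to 7377 genes in *Baf180* KD (6087), 5846 to 9635 in *Baf250a* KD (8647) and 994 to 5728 in *Brd9* KD (4165).

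The precision is that of 2 libraries a condition, 1 of which held 495778 counts.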
